A study of Mus musculus with 16 samples.

Results

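The nuclear genes that encode subunits of the mitochondrial respiratory chain and of ATP synthase were followed in differentiating mouse embryonic stem cells treated with a hawthorn extract or a fraction of it. Members were chosen by gene name alone, as Nduf genes of the a, b, c, s and v series, Sdha to Sdhd, Uqcr genes, Cox4 to Cox8 genes and Atp5 genes. In the name column of the scanner output these patterns matched 25 probes of 21 genes and none of complex IV, because most probes there carry only a RefSeq accession. The same patterns were therefore also applied to the RefSeq symbols of those accessions, which added 62 genes. The family then held 83 genes on 109 rows of the value table, out of 47252 genes and unnamed transcripts. Of these, 82 genes passed the filter on background and were tested, among 30915 genes tested in all, and 81 of them were well above background on all 16 arrays. The exceptions were Cox8b, well above background on 14 arrays, and Cox6a2, the heart and muscle isoform of its subunit, well above background on 3 arrays and not tested. Of the 25 probes that carried the gene name, 14 passed the filter and 9 were well above background on 0 arrays. Each gene was represented by its brightest row, and 3 of these rows were such named probes, those of Atp5j, Atp5l and Atp5pb.

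The cells were CGR8-Myh6-GFP, a feeder-free mouse embryonic stem cell line in which the cardiac Myh6 promoter drives GFP. They underwent cardiac differentiation in 384-well plates and were treated on day 4. The 6 groups were vehicle control (DMSO, n = 2), the hawthorn leaf and flower extract WS1442 at 0.25 mg/ml (n = 3) and its MeOH eluate, a fraction enriched in oligomeric procyanidins, at 0.1 mg/ml (n = 3), each for 6 h and for 24 h. The doses of the extract and the fraction differed, all 16 samples carry the same reporter, and the line is a single transgenic line. Total RNA of each sample was hybridised to 1 one-colour array. Nothing in the labels says that samples of a group came from separate cultures, so the p-values measure the spread between these samples, which may be technical.

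The respiratory chain passes electrons from NADH through complex I and from succinate through complex II to ubiquinone, then through complex III and cytochrome c to oxygen at complex IV. Complexes I, III and IV pump protons across the inner mitochondrial membrane, and complex V, the ATP synthase, uses their return to make ATP. Most subunits are encoded in the nucleus and a few core subunits in mitochondrial DNA, so both sets of transcripts are needed to build a complex. Pluripotent cells rely heavily on glycolysis, and oxidative capacity is known to expand as cardiac cells mature.

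Promoters were matched for 68 of the 83 genes, as 73 windows in the RefSeq table for GRCm38.p6. The 6 windows below, from 200 bases before to 30 after the annotated start, belong to members that fell at 24 h with both treatments (Ndufs8, Uqcr11, Atp5h), rose with both treatments at 24 h (Cox6b1), rose in 3 of the 4 comparisons with DMSO (Ndufs6), or rose at 24 h with WS1442 (Uqcrc1). They were chosen because they hold a motif, and other members of the same groups, such as Ndufc2, Ndufb10 and Ndufs7, hold neither. Capitals mark the ETS core CCGGAAG, which GABPA binds, or the binding motif of NRF1, on either strand. These factors are known regulators of nuclear genes for the respiratory chain.
Ndufs8 promoter, chr19:3912745-3912974, minus strand, ETS in capitals: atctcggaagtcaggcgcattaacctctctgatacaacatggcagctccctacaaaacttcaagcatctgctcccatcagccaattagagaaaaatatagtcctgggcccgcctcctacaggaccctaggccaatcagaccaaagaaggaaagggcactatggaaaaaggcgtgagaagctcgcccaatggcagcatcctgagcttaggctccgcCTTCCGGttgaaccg
Uqcr11 promoter, chr10:80406792-80407021, minus strand, ETS in capitals: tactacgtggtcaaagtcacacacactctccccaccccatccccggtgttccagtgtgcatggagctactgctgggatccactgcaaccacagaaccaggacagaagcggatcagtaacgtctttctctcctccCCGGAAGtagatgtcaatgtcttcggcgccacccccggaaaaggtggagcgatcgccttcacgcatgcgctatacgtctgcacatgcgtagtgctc
Atp5h promoter, chr11:115419890-115420119, minus strand, NRF1 and ETS in capitals: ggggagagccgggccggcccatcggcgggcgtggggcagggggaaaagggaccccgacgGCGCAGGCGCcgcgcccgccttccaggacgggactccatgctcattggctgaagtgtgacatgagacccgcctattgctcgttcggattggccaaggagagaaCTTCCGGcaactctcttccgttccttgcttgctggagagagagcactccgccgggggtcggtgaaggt
Cox6b1 promoter, chr7:30626085-30626314, minus strand, ETS in capitals: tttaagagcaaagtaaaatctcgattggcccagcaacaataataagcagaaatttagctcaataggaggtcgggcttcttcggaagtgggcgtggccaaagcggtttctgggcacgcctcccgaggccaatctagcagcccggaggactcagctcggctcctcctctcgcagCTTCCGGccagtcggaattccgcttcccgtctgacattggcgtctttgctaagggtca
Ndufs6 promoter, chr13:73328453-73328682, minus strand, NRF1 in capitals: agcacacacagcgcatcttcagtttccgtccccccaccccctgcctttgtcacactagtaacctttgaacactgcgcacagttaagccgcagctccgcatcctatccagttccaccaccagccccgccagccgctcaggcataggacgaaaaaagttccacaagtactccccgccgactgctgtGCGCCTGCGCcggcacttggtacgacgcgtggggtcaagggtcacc
Uqcrc1 promoter, chr9:108936448-108936677, plus strand, NRF1 in capitals: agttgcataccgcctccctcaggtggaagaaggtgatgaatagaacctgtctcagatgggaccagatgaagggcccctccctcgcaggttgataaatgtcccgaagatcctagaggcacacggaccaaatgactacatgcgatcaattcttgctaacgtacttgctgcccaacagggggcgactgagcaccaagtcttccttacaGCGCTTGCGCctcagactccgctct

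Both motifs were searched on both strands in windows from 250 bases before to 50 after the start. The NRF1 motif was found in 24.7% of the member windows, against 4.6% of all 32851 windows in the table. The ETS core was found in 23.3% of member windows against 8.86% of all windows, and the core ATGGCGG of the factor YY1 in 15.1% against 4.05%. The hypoxia response core ACGTG was found in 24.7% against 19.6%. Among members that fell at 24 h with both treatments, 3 of 8 windows held the NRF1 motif and 3 of 8 the ETS core. Among members that rose at 6 h with MeOH eluate these were 2 and 6 of 16 windows, and among the remaining members 13 and 9 of 50. Both directions of change thus included promoters with either motif.

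Values are log2 of the quantile-normalised intensity, and a change is the difference of group means on that scale, with its standard error. A member rose or fell where the limma adjusted p over all genes tested was under 0.05. All 8 arrays of a time point shared a slide, so time and slide cannot be told apart and changes were computed against DMSO of the same time. Between 55.1 and 63% of probes were well above background per array, no member row was saturated, and RNA integrity numbers were 8.6 to 10. Labelling with Cy3 at 24 h was 31.8 to 32.8 pmol/µg in the WS1442 samples, above the 25.8 to 26.1 in DMSO and the 27.1 to 30.3 with MeOH eluate. Its part in the results was not tested.

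By the brightest row of each gene, subunit transcripts moved little, and in different directions at the 2 times. By these rows no member passed the 2-fold limit of the study with unadjusted p under 0.05 in any comparison with DMSO. Of all genes 0.482% did with WS1442 and 2.11% with MeOH eluate at 6 h, and 2.01% and 2.93% at 24 h. Among the brightest rows the largest called rise was 1.3-fold, for Ndufa4, and the largest called fall was to 0.637 of the control, for Cox4i2. A second Ndufa13 row rose 1.74-fold with WS1442 and 1.54-fold with MeOH eluate at 24 h (limma adjusted p = 1.93e-05 and 6.46e-05). A dim second Atp5pb row passed the 2-fold limit with WS1442 at 24 h (-1.16, limma unadjusted p = 0.0194, adjusted p = 0.0724). Of the 82 members, 42 were called in at least 1 comparison with DMSO and 40 in none. In each called comparison, every treated sample lay beyond both DMSO samples. The calls were made on these same samples, so this separation is not independent support. The 4 comparisons share their DMSO samples within each time.

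After 6 h, WS1442 raised 2 members and lowered 0, or 2.44% of members, against 5.49% called among all genes (4.06% upward and 1.43% downward). The median change of the members was 0.056, against -0.004 for all genes. With 1 sample left out this count ran from 0 to 6, the 0 being reached without DMSO 6 h replicate 1, WS1442 6 h replicate 2 or WS1442 6 h replicate 3. MeOH eluate at 6 h raised 19 members and lowered 2, with a median of 0.08 against -0.003 for all genes. This was 25.6% of members against 16.9% of all genes. In the upward direction it was 23.2% against 8.48%, and in the downward direction 2.44% against 8.46%. With each array scaled to its 75th percentile in place of quantile normalisation, 6 members rose and 2 fell. That scaling moved the median of all genes from -0.003 to -0.026. Without DMSO 6 h replicate 1, 2 members were called, without MeOH eluate 6 h replicate 3, 9 were, and without MeOH eluate 6 h replicate 1, 13 were.

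After 24 h, WS1442 raised 8 members and lowered 17, which was 30.5% of members against 24.6% of all genes. These falls count Ndufa13 by its brightest row, although its second row rose. The falls made up 20.7% of members against 12.2% of all genes, and the rises 9.76% against 12.4%. MeOH eluate at 24 h raised 3 and lowered 14, or 20.7% of members against 17.8% of all genes, with falls at 17.1% against 8.46% and rises at 3.66% against 9.36%. Median changes were 0 with WS1442 and -0.027 with MeOH eluate, against 0.038 and 0.011 for all genes. Under scaling to the 75th percentile the split at 24 h moved to 1 rise and 31 falls with WS1442 and to 0 rises and 20 falls with MeOH eluate. The median of all genes moved too, from 0.038 to -0.02 with WS1442 and from 0.011 to -0.03 with MeOH eluate. Shares of all genes called under that scaling are not given here. Of the called falls 16 of 17 with WS1442 and 14 of 14 with MeOH eluate passed under both scalings, and of the called rises 1 of 8 and 0 of 3. Without DMSO 24 h replicate 1, 15 members were called with WS1442, and without DMSO 24 h replicate 2, 10 with MeOH eluate.

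**Figure D1:**
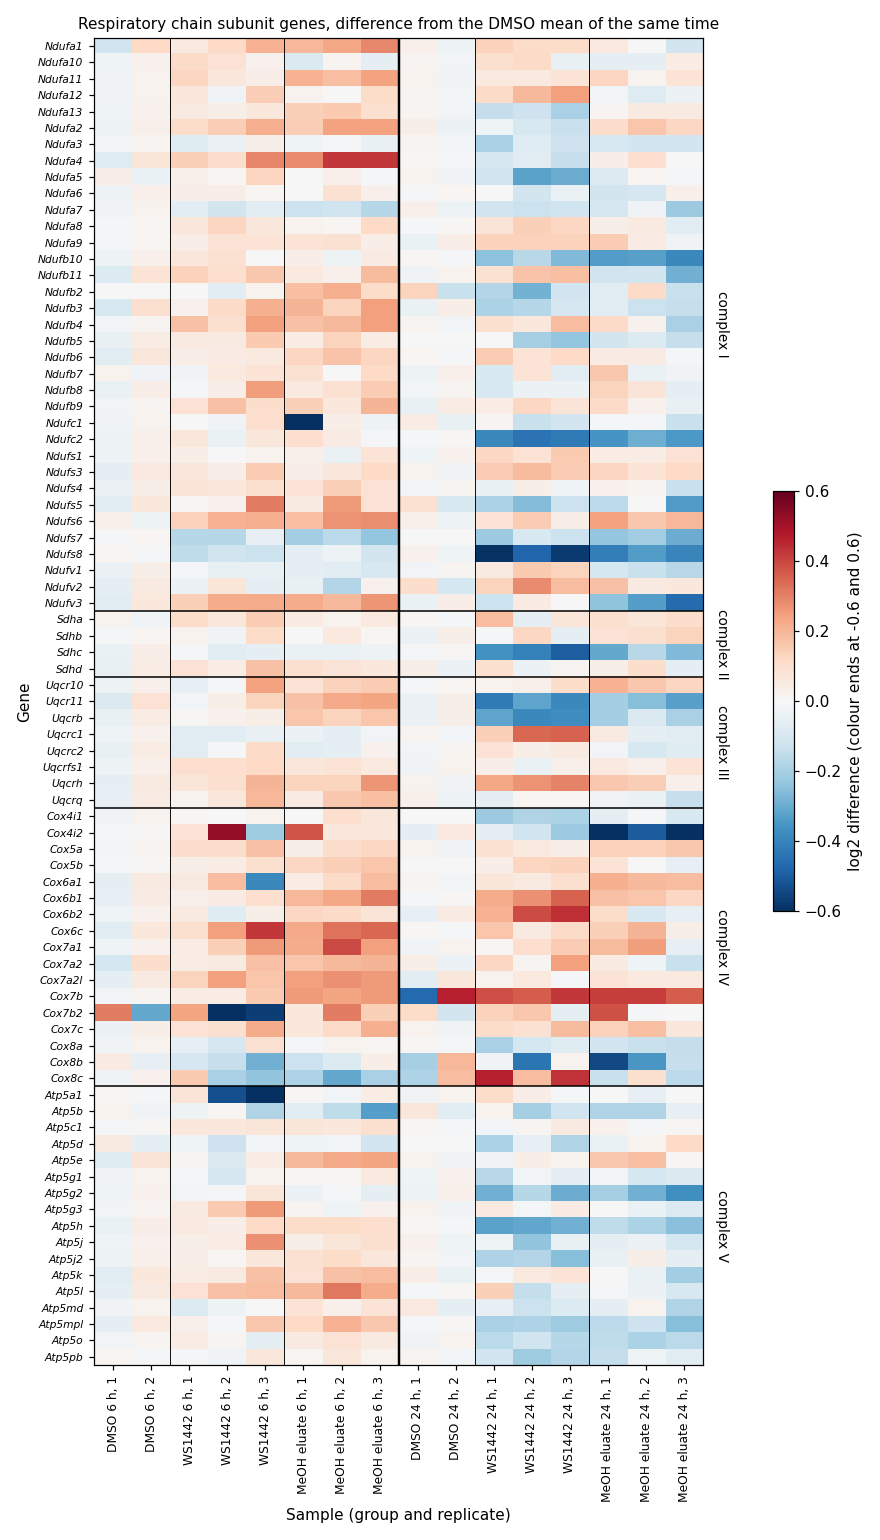
Log2 level of each of 81 of the 82 tested subunit genes (rows, grouped by complex) in each of the 16 samples (columns), as the difference from the mean of the DMSO samples of the same time; colour ends at -0.6 and 0.6. The MeOH eluate 6 h columns are mostly above DMSO, while the treated 24 h columns hold genes on both sides.

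By complex, the rises at 6 h with MeOH eluate were spread over 9 of 36 genes of complex I, 0 of 4 of complex II, 3 of 8 of complex III, 5 of 17 of complex IV and 2 of 17 of complex V. Genes were assigned to complexes by name, so Ndufa4 is counted in complex I here and throughout. Under scaling to the 75th percentile 2 rose in complex I, 4 in complex IV and 0 in the others. Median changes were 0.146 for complex IV and 0.125 for complex III, an order that turned with normexp background correction (0.092 and 0.098). They were 0.075 for complex I, 0.067 for complex V and 0.034 for complex II, which became 0.04, 0.015 and -0.03 under scaling to the 75th percentile. The mean over the 17 complex IV genes, relative to DMSO, was 0.109, 0.139 and 0.148 in the 3 MeOH eluate 6 h samples, against -0.01 and 0.01 in the DMSO samples. For complex III these means were 0.073, 0.096 and 0.132, against -0.046 and 0.046. The MeOH eluate samples lay above both DMSO samples in every complex, so this does not set complexes III and IV apart. In complex V, for example, they were at 0.057, 0.075 and 0.058, against -0.021 and 0.021.

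At 24 h complex V stood lowest. With WS1442, 6 of its 17 genes fell and 0 rose, with a median of -0.099, and with MeOH eluate 4 fell and 0 rose, with a median of -0.07. Its mean relative to DMSO was -0.082, -0.106 and -0.103 in the WS1442 24 h samples and -0.06, -0.062 and -0.106 with MeOH eluate. Both DMSO samples were higher, at 0.011 and -0.011. The complex I means of the treated samples also lay below both DMSO samples, at -0.028 to -0.045 with WS1442 and -0.026 to -0.094 with MeOH eluate. In complex IV 2 genes rose and 1 fell with each treatment, with medians of 0.088 and 0.064 that turned to -0.11 and -0.071 under scaling to the 75th percentile. Complex I had 4 rises and 7 falls with WS1442 and 1 and 6 with MeOH eluate. Its falls with WS1442 again count Ndufa13 by its brightest row.

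**Figure D2:**
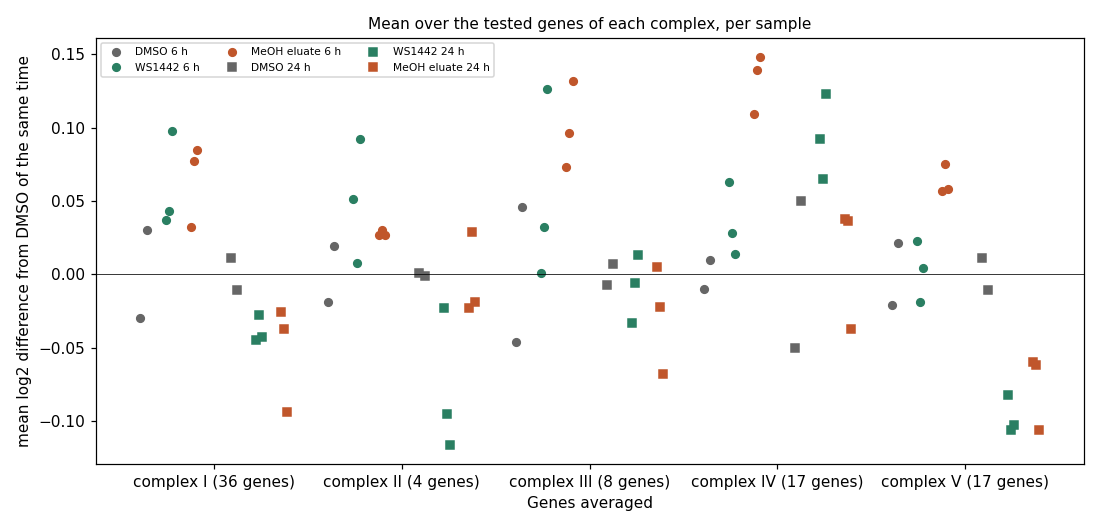
Mean log2 level over the genes of each complex in each sample, relative to the mean of the DMSO samples of the same time, with 1 point per sample. The means of all 6 treated samples at 24 h lie below both DMSO samples in complex V and also in complex I. The means of the 3 MeOH eluate samples at 6 h lie above both DMSO samples in every complex.

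**Figure D3:**
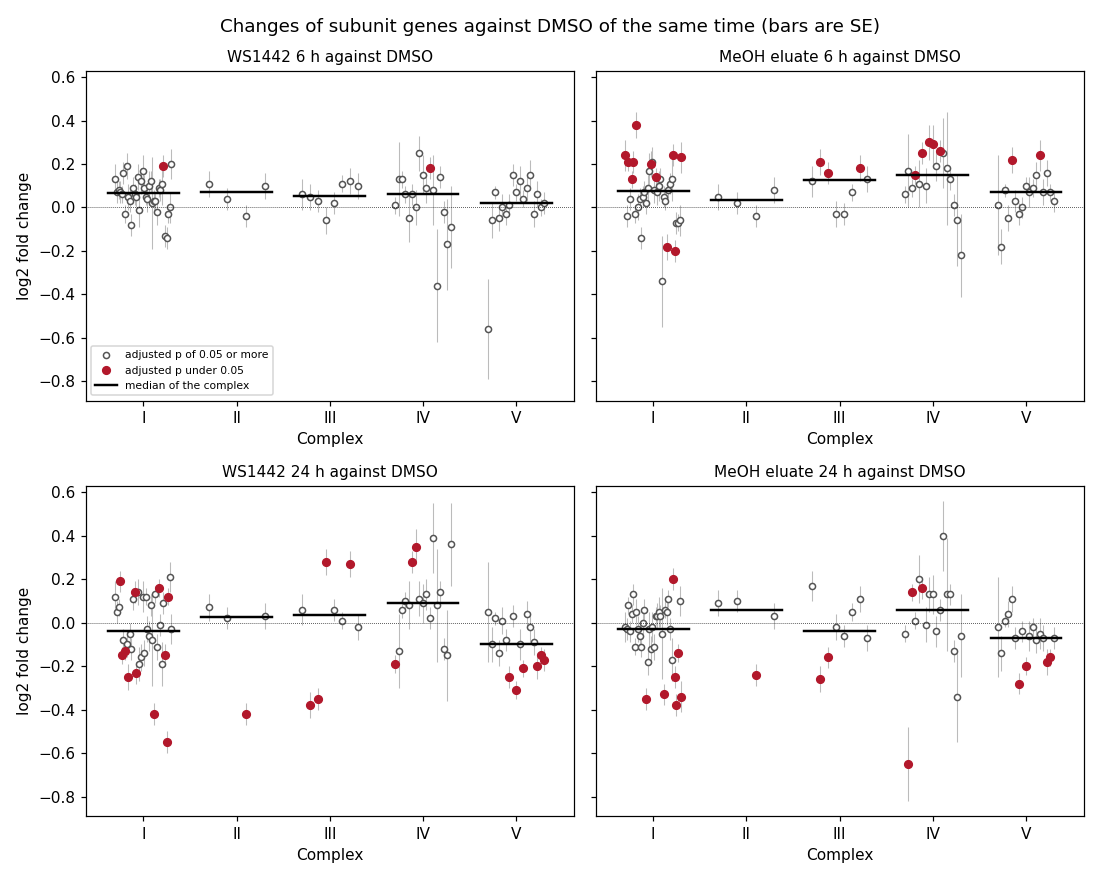
Log2 change against DMSO for each subunit gene, with its standard error, by complex, in the 4 comparisons; red points have an adjusted p under 0.05 and black lines mark the median of a complex. Most changes lie between -0.4 and 0.4.

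The arrays measure bulk RNA, in which fewer cells of a type and less RNA per cell cannot be told apart. Some transcripts that mark cell types were also called. Of all genes 4.06% rose and 1.43% fell with WS1442 at 6 h, and 8.48% and 8.46% with MeOH eluate. At 24 h 12.4% of all genes rose and 12.2% fell with WS1442, and 9.36% and 8.46% with MeOH eluate. The counts of blood and endothelial markers below differ from these shares by few genes. Of 12 mesoderm and cardiac progenitor markers, 6 fell and 0 rose with MeOH eluate at 24 h, and 4 fell and 1 rose with WS1442. Their mean level was 7.34 to 7.5 in those samples, 7.68 to 7.78 with WS1442 and 7.87 to 7.91 in DMSO. At 6 h this mean was 7.18 to 7.41 with MeOH eluate, where 2 markers rose and 3 fell, 7.48 to 7.62 with WS1442, where 2 fell, and 7.64 to 7.69 in DMSO. Of 6 endoderm markers tested, 3 fell with MeOH eluate at each time, and their mean was 6.83 to 6.84 at 6 h against 7.55 in both DMSO samples, and 7.16 to 7.37 at 24 h against 7.97 to 8.03. With WS1442 1 of them fell at 6 h, and 2 fell and 1 rose at 24 h. Of 10 pluripotency markers, 5 fell with MeOH eluate at 6 h (mean 8.6 to 8.78 against 9.08 to 9.13 in DMSO) and 1 at 24 h, while with WS1442 2 fell at 6 h and 3 fell and 1 rose at 24 h. Of 8 cardiomyocyte markers tested, 3 fell with WS1442 and 2 with MeOH eluate at 24 h, with means of 6.3 to 6.46 and 6.18 to 6.29 against 6.29 to 6.86 in DMSO, and at 6 h 1 rose with WS1442 and 1 rose and 2 fell with MeOH eluate. Myh6 and Myh7, which define cardiomyocytes, were not above background often enough to be tested, nor were Ttr and Apoa1. Of 7 neuroectoderm markers, 1 fell with WS1442 at 6 h, 1 rose and 2 fell with MeOH eluate at 6 h, 3 rose with WS1442 at 24 h, and 2 rose and 1 fell with MeOH eluate at 24 h. The 7 endothelial markers gave 1 call in the 4 comparisons, a fall with MeOH eluate at 24 h. Of 8 blood markers, 1 rose with MeOH eluate at 6 h, 1 fell with WS1442 at 24 h, and 1 rose and 1 fell with MeOH eluate at 24 h. The part of these shifts in the subunit results was not tested.

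Complex I takes electrons from NADH, and its leading falls at 24 h fell with both treatments. Ndufs8 encodes an iron-sulphur subunit of the arm that carries electrons towards ubiquinone. Its levels at 24 h were 11.61 and 11.56 in DMSO, 10.99, 11.11 and 11.01 with WS1442, and 11.17, 11.25 and 11.19 with MeOH eluate. All 6 treated samples were below both controls, and the WS1442 samples were the lowest. The change was -0.55 ± 0.05 with WS1442 (adjusted p = 5.68e-06) and -0.38 ± 0.05 with MeOH eluate (adjusted p = 3.91e-05). At 6 h the levels were 11.70 and 11.68 in DMSO, 11.54, 11.57 and 11.56 with WS1442 and 11.63, 11.66 and 11.58 with MeOH eluate. The treated samples were lower here too, but neither difference passed the test (adjusted p = 0.1 and 0.374).

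Ndufc2, a small accessory subunit of the membrane arm, had 24 h levels of 11.18 and 11.19 in DMSO, 10.80, 10.74 and 10.76 with WS1442, and 10.83, 10.89 and 10.84 with MeOH eluate. The treated samples lay together well below the controls. Its changes were -0.42 ± 0.05 (adjusted p = 5.99e-05) and -0.33 ± 0.05 (adjusted p = 0.000269). At 6 h its 8 values ran from 10.81 to 10.95, and the groups overlapped.

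Ndufb10 lies at the far end of the membrane arm. At 24 h it was at 12.99 and 12.98 in DMSO, at 12.74, 12.82 and 12.72 with WS1442, and at 12.65, 12.66 and 12.60 with MeOH eluate. Here the MeOH eluate samples were the lowest. It fell with WS1442 (-0.23 ± 0.05, adjusted p = 0.00204) and with MeOH eluate (-0.35 ± 0.05, adjusted p = 6.98e-05), while its 6 h values ran from 12.69 to 12.81 with overlapping groups.

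Ndufv3, an accessory subunit of the NADH-oxidising module, differed between the times. At 6 h it was at 12.63 and 12.76 in DMSO, 12.84, 12.92 and 12.92 with WS1442, and 12.92, 12.89 and 12.96 with MeOH eluate. The 24 h levels were 13.43 and 13.51 in DMSO, 13.34, 13.52 and 13.47 with WS1442, and 13.23, 13.14 and 13.01 with MeOH eluate. The MeOH eluate samples were above the controls at 6 h and below them at 24 h. The changes with MeOH eluate were 0.23 ± 0.07 (adjusted p = 0.026) and -0.34 ± 0.07 (adjusted p = 0.00187), the first not passing under scaling to the 75th percentile nor without DMSO 6 h replicate 1 or MeOH eluate 6 h replicate 1 or 3. With WS1442 neither passed (adjusted p = 0.0988 and 0.813). A second, dimmer Ndufv3 row, at 4.86 to 5.66, changed with MeOH eluate by 0.47 at 6 h (adjusted p = 0.0805) and by -0.02 at 24 h (adjusted p = 0.965). With the probes averaged the 24 h change of Ndufv3 was -0.182 and not called.

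Ndufa4, named as a complex I gene but now regarded as a subunit of complex IV, had the largest called rise among the brightest rows. Its 6 h levels were 11.40 and 11.55 in DMSO, 11.62, 11.58 and 11.77 with WS1442, and 11.76, 11.90 and 11.90 with MeOH eluate. All 6 treated samples exceeded the controls. It rose by 0.38 ± 0.06, or 30.1%, with MeOH eluate (adjusted p = 0.00109), and was 0.19 ± 0.06 higher with WS1442 without passing the test (adjusted p = 0.104). At 24 h the levels were 11.75 and 11.73 in DMSO, 11.64, 11.67 and 11.60 with WS1442 and 11.78, 11.84 and 11.74 with MeOH eluate, and neither comparison was called.

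Ndufs6, an accessory subunit near the NADH site, rose in 3 comparisons. In DMSO at 6 h it was at 14 and 13.94, against 14.11, 14.18 and 14.19 with WS1442, and 14.15, 14.24 and 14.25 with MeOH eluate. Levels at 24 h were 14.05 and 13.99 in DMSO, 14.10, 14.17 and 14.06 with WS1442, and 14.26, 14.18 and 14.22 with MeOH eluate. At each time all 6 treated samples exceeded both controls. The changes at 6 h were 0.19 ± 0.05 with WS1442 (adjusted p = 0.0302) and 0.24 ± 0.05 with MeOH eluate (adjusted p = 0.00276). At 24 h they were 0.09 ± 0.05 (adjusted p = 0.177) and 0.20 ± 0.05 (adjusted p = 0.00733), the latter reduced to 0.038 under scaling to the 75th percentile.

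Ndufs7 carries the iron-sulphur cluster next to ubiquinone. It was at 11.96 and 11.98 in DMSO at 6 h, 11.80, 11.80 and 11.92 with WS1442, and 11.76, 11.81 and 11.74 with MeOH eluate. By 24 h it stood at 12.12 in both DMSO samples, at 11.90, 12.03 and 11.99 with WS1442, and at 11.89, 11.91 and 11.82 with MeOH eluate. Treated samples were lower throughout. Its changes were -0.13 ± 0.05 and -0.20 ± 0.05 at 6 h, of which only the MeOH eluate value passed (adjusted p = 0.0132). Those at 24 h were -0.15 ± 0.05 (adjusted p = 0.0468) and -0.25 ± 0.05 (adjusted p = 0.0026). The WS1442 value lost its call when any of 12 of the 16 samples was left out.

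Ndufv1, which binds NADH and the flavin, was called in opposite directions with the 2 treatments at 24 h. It was at 13.10 and 13.13 in DMSO, 13.17, 13.27 and 13.25 with WS1442, and 13.01, 12.98 and 12.95 with MeOH eluate. The 3 groups did not overlap. It rose by 0.12 ± 0.04 with WS1442 (adjusted p = 0.0428), a sign that turned to -0.025 under scaling to the 75th percentile, and its change was -0.14 ± 0.04 with MeOH eluate (adjusted p = 0.026). Of 13 alternatives, the WS1442 call was lost in 5 and turned in 1, and the MeOH eluate call was lost in 5. At 6 h its values ran from 12.89 to 13.02 with no call.

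Ndufa12, an accessory subunit of the peripheral arm, was at 13.63 and 13.60 in DMSO at 24 h, 13.73, 13.81 and 13.86 with WS1442, and 13.60, 13.54 and 13.58 with MeOH eluate. Only the WS1442 samples stood clear of DMSO. It rose by 0.19 ± 0.05 with WS1442 (adjusted p = 0.0183), which scaling to the 75th percentile reduced to 0.003. The 6 h values, 13.53 to 13.70, overlapped between groups. Ndufs1, which carries several iron-sulphur clusters, was called in no comparison with DMSO. It was at 11.64 and 11.69 in DMSO at 24 h, 11.79, 11.75 and 11.82 with WS1442 and 11.71, 11.71 and 11.75 with MeOH eluate, the WS1442 change of 0.13 ± 0.04 just missing the threshold (adjusted p = 0.0509). At 6 h its 8 values ran from 11.56 to 11.68.

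For Ndufa13 the calls of the probes went in opposite directions. Its brightest probe was at 12.81 and 12.78 in DMSO at 24 h, 12.65, 12.67 and 12.60 with WS1442, and 12.81, 12.85 and 12.85 with MeOH eluate. A second probe, placed by the scanner files at chr8:72411694-72411753 on the minus strand of mm9, was at 8.43 and 8.37 in DMSO, 9.10, 9.23 and 9.26 with WS1442, and 9.09, 8.97 and 9 with MeOH eluate. The first probe was lower with WS1442 and the second higher with both treatments. Their changes with WS1442 were -0.15 ± 0.04 (adjusted p = 0.00781) and 0.80 ± 0.08 (adjusted p = 1.93e-05), so no direction is given for this gene at 24 h. At 6 h the brightest probe rose with MeOH eluate by 0.13 ± 0.04 (adjusted p = 0.0261), a call lost with the mean of both probes.

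The other called complex I genes had smaller or similar changes. With MeOH eluate at 6 h these were rises of Ndufa1 (0.24), Ndufa2 (0.21), Ndufa11 (0.21), Ndufb3 (0.20) and Ndufb6 (0.14). With WS1442 at 24 h Ndufa5 (-0.25) and Ndufa3 (-0.13) fell, and Ndufs3 (0.16) and Ndufa9 (0.14) rose. The calls of Ndufb3 and Ndufa3 were each lost when any of 12 of the 16 samples was left out. A further named Ndufb2 probe, not the representative of its gene, fell with WS1442 at 24 h (-0.22, adjusted p = 0.0114).

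**Figure D4:**
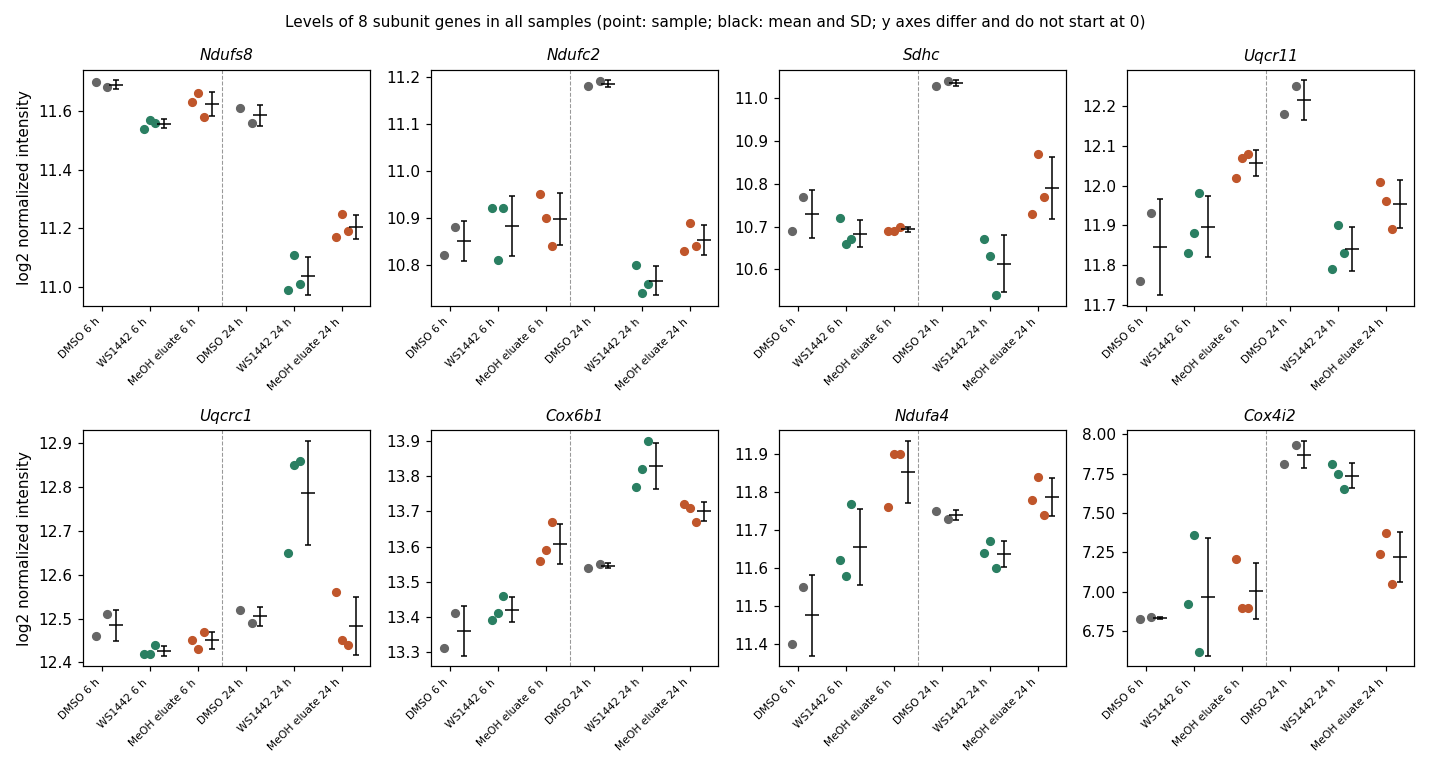
Log2 level per sample (points) with the group mean and SD (bars) for Ndufs8, Ndufc2, Sdhc, Uqcr11, Uqcrc1, Cox6b1, Ndufa4 and Cox4i2 in the 6 groups; the y axes differ between panels and do not start at 0. For Ndufs8, Ndufc2, Sdhc and Uqcr11, all treated samples at 24 h lie below both DMSO samples.

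Complex II oxidises succinate and belongs to both the respiratory chain and the tricarboxylic acid cycle. Of its 4 genes only Sdhc, a membrane anchor that helps to hold the haem, was called. Sdhc was at 11.03 and 11.04 in DMSO at 24 h, 10.67, 10.63 and 10.54 with WS1442, and 10.73, 10.87 and 10.77 with MeOH eluate. The 3 groups were separate, the WS1442 samples lowest. Its changes were -0.42 ± 0.05 (adjusted p = 9.19e-05) and -0.24 ± 0.05 (adjusted p = 0.00554). At 6 h the 8 values ran from 10.66 to 10.77 and were not called.

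The catalytic subunits of complex II were steadier by their brightest rows. Sdha, which binds the flavin, was at 12.13 and 12.12 in DMSO at 24 h, 12.31, 12.07 and 12.20 with WS1442, and 12.22, 12.20 and 12.23 with MeOH eluate. The 6 h levels were 11.94 and 11.90, then 12.03, 11.99 and 12.07, then 11.97, 11.94 and 11.98 in the same order of groups. Sdhb, the iron-sulphur subunit, was at 11.65 and 11.72 in DMSO at 24 h, 11.68, 11.81 and 11.63 with WS1442, and 11.77, 11.78 and 11.82 with MeOH eluate. By these rows none of the changes of Sdha and Sdhb, between 0.02 and 0.11, passed the test. Nor did those of the other anchor, Sdhd, between 0.03 and 0.10. A second, dim Sdha row, at 3.62 to 4.38, was higher with WS1442 by 0.46 at 6 h and 0.51 at 24 h. With MeOH eluate it was higher by 0.48 and 0.63. None of these passed either (adjusted p = 0.273, 0.11, 0.155 and 0.0615).

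Complex III passes electrons from ubiquinol to cytochrome c. Uqcr11 and Uqcrb, accessory subunits, rose at 6 h with MeOH eluate and fell at 24 h with both treatments. Uqcr11 was at 11.76 and 11.93 in DMSO at 6 h, 11.83, 11.88 and 11.98 with WS1442, and 12.02, 12.07 and 12.08 with MeOH eluate. After 24 h its samples read 12.18 and 12.25 in DMSO, 11.79, 11.90 and 11.83 with WS1442, and 12.01, 11.96 and 11.89 with MeOH eluate. Only the MeOH eluate samples were clear of DMSO at 6 h, and all treated samples were below it at 24 h. Its changes with MeOH eluate were 0.21 ± 0.06 at 6 h (adjusted p = 0.0261) and -0.26 ± 0.06 at 24 h (adjusted p = 0.00695), and with WS1442 at 24 h -0.38 ± 0.06 (adjusted p = 0.000479).

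Uqcrb, which binds cytochrome b, was at 12.14 and 12.23 in DMSO at 6 h, 12.19, 12.21 and 12.22 with WS1442, and 12.35, 12.32 and 12.35 with MeOH eluate. At 24 h it was at 12.32 and 12.39 in DMSO, 12.04, 11.97 and 11.98 with WS1442, and 12.15, 12.27 and 12.16 with MeOH eluate. The order of the groups turned between the times, with MeOH eluate highest at 6 h and DMSO highest at 24 h. The changes were 0.16 ± 0.05 with MeOH eluate at 6 h (adjusted p = 0.0263), -0.16 ± 0.05 at 24 h (adjusted p = 0.0284), and -0.35 ± 0.05 with WS1442 at 24 h (adjusted p = 0.000101). For both genes the 6 h rise lost its call under scaling to the 75th percentile, while the 24 h falls kept theirs.

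Uqcrc1, a core protein of the complex, and Uqcrh, the hinge protein beside cytochrome c1, rose at 24 h with WS1442. Uqcrc1 was at 12.52 and 12.49 in DMSO, 12.65, 12.85 and 12.86 with WS1442, and 12.56, 12.45 and 12.44 with MeOH eluate. The WS1442 samples stood alone above the other groups. Its changes were 0.28 ± 0.06 (adjusted p = 0.00236) with WS1442 and -0.02 ± 0.06 with MeOH eluate, and at 6 h its 8 values lay between 12.42 and 12.51. Uqcrh was at 13.14 and 13.10 in DMSO at 24 h, 13.35, 13.39 and 13.42 with WS1442, and 13.28, 13.27 and 13.15 with MeOH eluate. Levels at 6 h were 12.94 and 13.05 in DMSO, 13.07, 13.09 and 13.20 with WS1442, and 13.13, 13.13 and 13.26 with MeOH eluate. All 12 treated samples exceeded their controls. The change passed with WS1442 at 24 h (0.27 ± 0.06, adjusted p = 0.00306) and with MeOH eluate at 6 h (0.18 ± 0.06, adjusted p = 0.0451), the latter call being lost when any of 12 of the 16 samples was left out. Under scaling to the 75th percentile neither gene passed at 24 h, at 0.16 for Uqcrc1 and 0.111 for Uqcrh.

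Uqcrfs1, the Rieske iron-sulphur protein, was not called. It was at 13.75 and 13.79 in DMSO at 24 h, 13.81, 13.73 and 13.80 with WS1442, and 13.83, 13.80 and 13.85 with MeOH eluate. After 6 h its samples read 13.48 and 13.54 in DMSO and between 13.57 and 13.63 in the treated samples (adjusted p = 0.115 and 0.214). Uqcrc2, Uqcr10 and Uqcrq were not called either.

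Complex IV reduces oxygen, and several of its subunits exist as isoforms used in different tissues. Cox4i1 is the general isoform of subunit 4 and Cox4i2 the form known to be induced by low oxygen. Cox4i1 was at 14.85 in both DMSO samples at 24 h, 14.63, 14.67 and 14.66 with WS1442, and 14.79, 14.84 and 14.76 with MeOH eluate. Cox4i2 was at 7.81 and 7.93 in DMSO, 7.81, 7.75 and 7.65 with WS1442, and 7.24, 7.37 and 7.05 with MeOH eluate. Cox4i1 was lowest with WS1442, and Cox4i2 lowest with MeOH eluate. Cox4i1 changed by -0.19 ± 0.04 with WS1442 (adjusted p = 0.00162) and by -0.05 ± 0.04 with MeOH eluate (adjusted p = 0.393). The change of Cox4i2 was -0.13 ± 0.17 with WS1442 (adjusted p = 0.617) and -0.65 ± 0.17 with MeOH eluate (adjusted p = 0.0138), so that it fell by 36.3%, a call lost without either DMSO 24 h sample or without MeOH eluate 24 h replicate 3.

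At 6 h Cox4i1 ran from 14.69 to 14.81 with no call. Cox4i2 at 6 h was at 6.83 and 6.84 in DMSO, 6.92, 7.36 and 6.62 with WS1442, and 7.21, 6.90 and 6.90 with MeOH eluate. The WS1442 samples lay on both sides of DMSO. Neither change of Cox4i2 at 6 h passed.

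Cox6b1, the general isoform of a subunit at the dimer interface, rose in 3 comparisons. At 6 h it was at 13.31 and 13.41 in DMSO, 13.39, 13.41 and 13.46 with WS1442, and 13.56, 13.59 and 13.67 with MeOH eluate. The 24 h levels were 13.54 and 13.55 in DMSO, 13.77, 13.82 and 13.90 with WS1442, and 13.72, 13.71 and 13.67 with MeOH eluate. Every treated group except WS1442 at 6 h lay above its controls. The changes were 0.25 ± 0.05 with MeOH eluate at 6 h (adjusted p = 0.00258), 0.28 ± 0.05 with WS1442 at 24 h (adjusted p = 0.000605) and 0.16 ± 0.05 with MeOH eluate at 24 h (adjusted p = 0.0294). Scaling to the 75th percentile kept the 6 h call, at 0.232, and lost both 24 h calls, at 0.109 and 0.041.

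Its testis isoform Cox6b2 was at 10.08 and 10.18 in DMSO at 24 h, 10.34, 10.52 and 10.57 with WS1442, and 10.24, 10.04 and 10.08 with MeOH eluate. Only the WS1442 samples were clear of DMSO. It rose by 0.35 ± 0.08 (adjusted p = 0.00395), the largest called rise at 24 h among the brightest rows. This was the only called rise at 24 h that held under scaling to the 75th percentile, though not without DMSO 24 h replicate 1. At 6 h Cox6b2 ran from 9.65 to 9.85 with no call.

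Among the Cox7a genes, Cox7a2l, which helps respiratory complexes to assemble into supercomplexes, rose at 6 h with both treatments. It was at 13.33 and 13.44 in DMSO, 13.52, 13.63 and 13.55 with WS1442, and 13.63, 13.66 and 13.64 with MeOH eluate. No treated sample overlapped DMSO. The changes were 0.18 ± 0.05 (adjusted p = 0.0459) and 0.26 ± 0.05 (adjusted p = 0.00239), and the first was lost when any of 12 of the 16 samples was left out. At 24 h its values, 13.79 to 13.94, overlapped between groups.

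Cox7a1, the heart and muscle isoform, was at 9.41 and 9.46 in DMSO at 6 h, 9.48, 9.58 and 9.69 with WS1442, and 9.66, 9.83 and 9.68 with MeOH eluate. The treated samples were above DMSO, but only MeOH eluate passed (0.29 ± 0.09, adjusted p = 0.033), and not under scaling to the 75th percentile. At 24 h its values were 9.98 and 10.02 in DMSO, 10.01 to 10.15 with WS1442 and 9.95 to 10.25 with MeOH eluate. Cox7a2, the general isoform, was at 13.46 and 13.67 in DMSO at 6 h, 13.61, 13.62 and 13.74 with WS1442, and 13.73, 13.76 and 13.77 with MeOH eluate, and was not called (adjusted p = 0.56 and 0.0957). Its 24 h values ran from 13.49 to 13.87.

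Cox6c, a small accessory subunit, was at 13.60 and 13.73 in DMSO at 6 h, 13.76, 13.91 and 14.09 with WS1442, and 13.89, 13.99 and 14.01 with MeOH eluate. The treated samples all exceeded DMSO, and the change passed with MeOH eluate (0.30 ± 0.08, adjusted p = 0.0175) but not with WS1442 (0.25 ± 0.08, adjusted p = 0.0768). At 24 h it ran from 13.99 to 14.20 with no call. Cox5a, which lies on the matrix side, was at 14.30 and 14.26 in DMSO at 24 h, 14.37, 14.34 and 14.32 with WS1442, and 14.42, 14.42 and 14.44 with MeOH eluate. It rose with MeOH eluate (0.14 ± 0.04, adjusted p = 0.0125), which turned to -0.024 under scaling to the 75th percentile. Cox5b rose with MeOH eluate at 6 h (0.15, adjusted p = 0.0323).

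The remaining isoform families were not called. Cox6a1, the general isoform of its subunit, was at 14.88 and 14.99 in DMSO at 6 h, 14.99, 15.12 and 14.55 with WS1442, and 14.98, 15.05 and 15.12 with MeOH eluate, where the third WS1442 sample was the lowest. Levels at 24 h were 15.26 and 15.23 in DMSO, 15.32, 15.30 and 15.34 with WS1442, and 15.46, 15.44 and 15.43 with MeOH eluate. The treated samples were above DMSO, yet the changes of 0.08 ± 0.11 and 0.20 ± 0.11 did not pass.

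Cox7b was at 11.48 and 12.41 in DMSO at 24 h, and at 12.31 to 12.37 in the 6 treated samples. The first DMSO sample stood far below the rest, and the changes of 0.39 ± 0.16 and 0.40 ± 0.16 did not pass. The 6 h levels were 12.18 and 12.21 in DMSO, 12.24, 12.24 and 12.35 with WS1442, and 12.45, 12.43 and 12.45 with MeOH eluate, all above DMSO without passing the test. Cox8a was at 13.83 and 13.82 in DMSO at 24 h, 13.63, 13.72 and 13.75 with WS1442, and 13.71, 13.69 and 13.68 with MeOH eluate, lower in all treated samples but not called (adjusted p = 0.0873 and 0.0865). At 6 h Cox8a ran from 13.54 to 13.73. The isoforms Cox7b2 (4.44 to 5.51), Cox8b (3.73 to 4.83) and Cox8c (4.11 to 4.95) were dim on these arrays and not called.

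Complex V has a catalytic head, a rotating ring of c subunits and a peripheral stalk. Its catalytic genes Atp5a1 and Atp5b were not called. Atp5a1 was at 13.90 and 13.89 in DMSO at 6 h, 13.97, 13.37 and 12.67 with WS1442, and 13.90, 13.88 and 13.94 with MeOH eluate. The WS1442 samples spread over more than the range of all other samples, and the change of -0.56 ± 0.23 did not pass (adjusted p = 0.177). At 24 h Atp5a1 was at 13.97 and 14.01 in DMSO, 14.10, 14.03 and 13.98 with WS1442, and 13.99, 13.94 and 13.99 with MeOH eluate. Atp5b was at 14.92 and 14.88 in DMSO at 6 h, 14.87, 14.91 and 14.72 with WS1442, and 14.83, 14.75 and 14.57 with MeOH eluate. By 24 h it stood at 14.70 and 14.56 in DMSO, 14.65, 14.43 and 14.51 with WS1442, and 14.45, 14.45 and 14.58 with MeOH eluate. Its changes lay between -0.06 and -0.18, with overlapping groups except for MeOH eluate at 6 h, whose samples were below DMSO.

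The genes Atp5g1, Atp5g2 and Atp5g3 encode the same mature c subunit with different import sequences, and their transcripts moved separately. Atp5g2 was at 14.23 and 14.29 in DMSO at 24 h, 13.97, 14.09 and 13.96 with WS1442, and 14.06, 13.97 and 13.89 with MeOH eluate. All treated samples were below DMSO, and it fell with WS1442 (-0.25 ± 0.05, adjusted p = 0.00306) and with MeOH eluate (-0.28 ± 0.05, adjusted p = 0.00136). At 6 h Atp5g2 ran from 13.98 to 14.11 with no call. Atp5g1 was at 13.19 and 13.24 in DMSO at 24 h, 13.05, 13.20 and 13.16 with WS1442, and 13.20, 13.11 and 13.13 with MeOH eluate, and at 13.27 to 13.43 at 6 h. Its groups overlapped and it was not called, although a second, named Atp5g1 probe fell with WS1442 at 24 h (-0.40, adjusted p = 0.00819). Atp5g3 was at 14.88 and 14.84 in DMSO at 24 h, 14.92, 14.85 and 14.91 with WS1442, and 14.86, 14.82 and 14.78 with MeOH eluate. Levels at 6 h were 14.84 and 14.87 in DMSO, 14.91, 15.01 and 15.11 with WS1442, and 14.87, 14.83 and 14.88 with MeOH eluate, with only the WS1442 samples above DMSO and no call (adjusted p = 0.0841).

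The falls of complex V included stalk and membrane subunits. Atp5h, the stalk subunit d, was at 14.06 and 14.04 in DMSO at 24 h, 13.73, 13.74 and 13.76 with WS1442, and 13.90, 13.86 and 13.80 with MeOH eluate. The treated samples were all below DMSO, and those with WS1442 the lowest. Its changes were -0.31 ± 0.04 (adjusted p = 9.08e-05) and -0.20 ± 0.04 (adjusted p = 0.00228). At 6 h its values ran from 13.75 to 13.91 with no call. Of the stalk subunits, Atp5o (-0.15 and -0.16) also fell with both treatments at 24 h and Atp5pb (-0.17) with WS1442. A further Atp5pb row, well above background on all 16 arrays, was not called with WS1442 at 24 h (-0.09, limma adjusted p = 0.416). The membrane subunit Atp5mpl (-0.20 and -0.18) fell with both treatments and Atp5j2 (-0.21) with WS1442. With MeOH eluate at 6 h Atp5l (0.24) and Atp5e (0.22) rose. A second Atp5l row rose there too (0.33, adjusted p = 0.000365), and a named Atp5k probe that did not represent its gene fell with MeOH eluate at 24 h (-0.25, adjusted p = 0.0179).

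The treatments were also set against each other, at their different doses. At 6 h MeOH eluate differed from WS1442 in 5 members that were higher and 1 that was lower, which was 7.32% of members against 12.2% of all genes (4.65% higher and 7.57% lower). At 24 h 11 were higher and 7 lower with MeOH eluate, or 22% against 14.3% of all genes (7.54% higher and 6.78% lower). Among those higher with MeOH eluate at 24 h were members that had fallen with both treatments, by less with MeOH eluate, such as Uqcrb (0.20, adjusted p = 0.0051), Sdhc (0.18, adjusted p = 0.0203), Ndufs8 (0.16, adjusted p = 0.0161) and Atp5h (0.11, adjusted p = 0.0479). The Atp5h call was lost in 11 of 13 alternatives and when any of 12 of the 16 samples was left out. Among those lower were Cox4i2 (-0.52 ± 0.15, adjusted p = 0.033), Cox6b2 (-0.36 ± 0.07, adjusted p = 0.00305), Ndufv3 (-0.32, adjusted p = 0.00294), Ndufb11 (-0.32, adjusted p = 0.0019), Uqcrc1 (-0.30 ± 0.05, adjusted p = 0.00146) and Ndufv1 (-0.25 ± 0.04, adjusted p = 0.000471). That of Cox4i2 was lost without any of the 3 WS1442 24 h samples or without MeOH eluate 24 h replicate 1 or 3. Under scaling to the 75th percentile the counts were 0 higher and 7 lower at 6 h and 9 higher and 6 lower at 24 h. At 6 h 0 of the 6 calls were kept. The median of all genes under that scaling was -0.037 at 6 h and -0.004 at 24 h. With 1 sample left out the 6 h count ran from 1, without WS1442 6 h replicate 2 or MeOH eluate 6 h replicate 3, to 7, and without WS1442 24 h replicate 3, 11 members were called at 24 h.

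Among the 25 members called with WS1442 and the 17 called with MeOH eluate at 24 h, 13 were called with both, or 52% and 76.5% of the lists. Of these, 11 fell with both, Cox6b1 rose with both and Ndufv1 was called in opposite directions. Since both comparisons use the same DMSO samples, this overlap is a count and not independent support.

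Between the times, effects differed mostly in the downward direction. The WS1442 effect at 24 h differed from that at 6 h in 18 members, 3 upward and 15 downward, or 22% of members against 12.5% of all genes (5.49% upward and 7.04% downward). For MeOH eluate 11 members differed, all downward, or 13.4% against 7.58% of all genes (3.86% upward and 3.72% downward). Without DMSO 6 h replicate 1 these counts were 8 and 6, and the WS1442 count was 7 without DMSO 24 h replicate 1 and 11 without WS1442 24 h replicate 3. In DMSO itself 69 of the 82 members were higher at 24 h than at 6 h, with a median difference of 0.151 against -0.007 over all genes, and medians from 0.105 in complex V to 0.176 in complex IV. This is a description only, because the times were hybridised on different slides.

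The transcripts of the mitochondrial genome, which encodes the remaining core subunits, did not follow the nuclear set at 24 h. Of 11 such transcripts tested, 0 were called with WS1442 at 6 h, 7 rose with MeOH eluate at 6 h, 5 rose and 1 fell with WS1442 at 24 h, and 7 rose and 1 fell with MeOH eluate at 24 h. Of all genes 4.06%, 8.48%, 12.4% and 9.36% rose in this order of comparisons, and 1.43%, 8.46%, 12.2% and 8.46% fell. Median changes of the mitochondrial transcripts in this order were 0.08, 0.42, 0.23 and 0.47. Under scaling to the 75th percentile 3 rose and 1 fell with WS1442 at 24 h, with a median of -0.056, and 4 rose and 1 fell with MeOH eluate. The medians of all genes were then -0.02 and -0.03. CYTB, the core of complex III, was at 14.01 and 14.12 in DMSO at 24 h, 14.41, 14.46 and 14.19 with WS1442, and 14.84, 14.62 and 14.89 with MeOH eluate. Its 3 groups were ordered from DMSO to MeOH eluate without overlap. The changes were 0.29 ± 0.10 (adjusted p = 0.041), not passing under scaling to the 75th percentile, and 0.71 ± 0.10 (adjusted p = 0.000103).

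ND4 of complex I rose in 3 comparisons (0.42, 0.54 and 0.66 for MeOH eluate at 6 h, WS1442 at 24 h and MeOH eluate at 24 h), as did ND5 (0.64, 0.45 and 0.66) and ATP8 of complex V (0.39, 0.53 and 0.56). Without DMSO 6 h replicate 2 the 6 h values were 0.248 for ND4, 0.41 for ND5 and 0.2 for ATP8, and of the 7 rises those of ND4, ND5, ATP8, ND2, ND4L and CYTB lost their calls. Those of ND4, ATP8, ND2 and ND4L were also lost without MeOH eluate 6 h replicate 1 or 3. The 24 h rise of ND5 with WS1442 was lost without any single DMSO 24 h or WS1442 24 h sample. ND6, the only protein gene on the other strand of the mitochondrial genome, was the transcript that fell. It was at 10.61 and 10.45 in DMSO at 6 h, 10.70, 10.65 and 10.46 with WS1442, and 11.22, 11.11 and 11.32 with MeOH eluate. After 24 h its samples read 11.31 and 11.45 in DMSO, 10.54, 10.40 and 10.16 with WS1442, and 10.80, 10.83 and 11 with MeOH eluate. Its MeOH eluate samples were the highest at 6 h, and DMSO the highest at 24 h. The change was 0.69 ± 0.11 with MeOH eluate at 6 h (adjusted p = 0.000536), -1.01 ± 0.11 with WS1442 at 24 h (adjusted p = 2.69e-05) and -0.51 ± 0.11 with MeOH eluate at 24 h (adjusted p = 0.00336). The ND3 probe was placed on another chromosome by the scanner files and is uncertain.

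**Figure D5:**
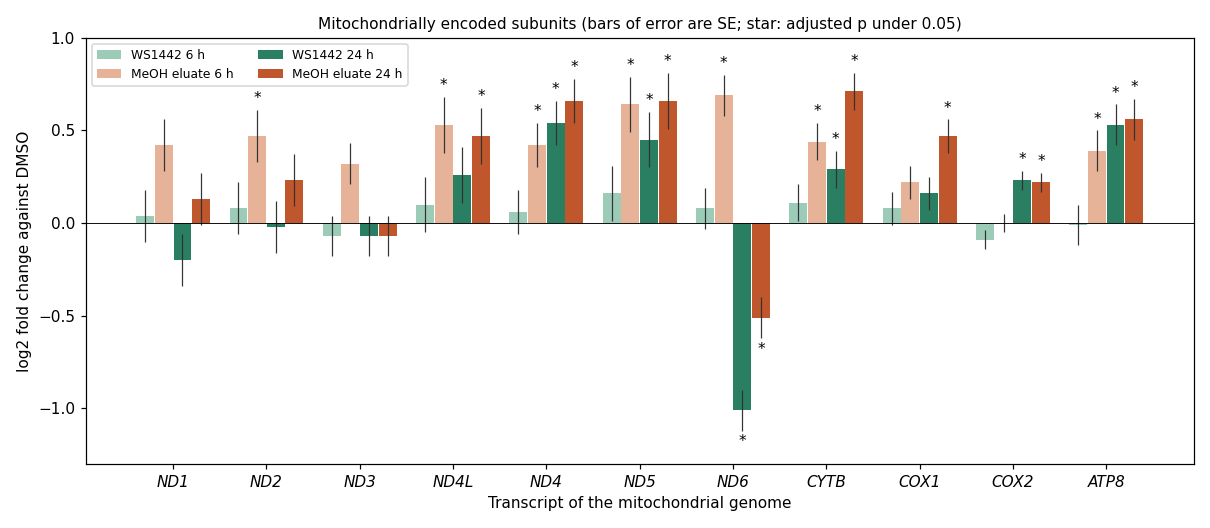
Log2 change against DMSO, with its standard error, of the 11 transcripts of the mitochondrial genome in the 4 comparisons; stars mark an adjusted p under 0.05. At 24 h ND6 is at -1.01 with WS1442 and -0.51 with MeOH eluate, while CYTB, ND4, ND5 and ATP8 are above 0 with both.

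Ndufa4l2, a relative of Ndufa4 known to be induced by low oxygen and outside the name patterns, changed more than any member. It was at 8.30 and 8.67 in DMSO at 6 h, 8.40, 8.24 and 8.52 with WS1442, and 7.70, 7.88 and 7.58 with MeOH eluate. At 24 h it was at 10.06 and 10.25 in DMSO, 9.26, 9.37 and 9.04 with WS1442, and 8.19, 8.19 and 8.09 with MeOH eluate. The MeOH eluate samples were lowest at both times and WS1442 intermediate at 24 h. Its changes with MeOH eluate were -0.76 ± 0.13 at 6 h (adjusted p = 0.000996) and -2 ± 0.13 at 24 h (adjusted p = 1.51e-07), and with WS1442 at 24 h -0.93 ± 0.13 (adjusted p = 0.000153). Of the 4 such genes outside the patterns, cytochrome c (Cycs) was the other that fell, with WS1442 at 24 h (-0.18).

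Few regulators of mitochondrial biogenesis were called. Of 17 tested, 0 were called with WS1442 at 6 h, 1 rose and 3 fell with MeOH eluate at 6 h, and 3 and 2 fell at 24 h with WS1442 and MeOH eluate. Of all genes 8.46%, 12.2% and 8.46% fell in the last 3 comparisons, so these counts differ from the general share by few genes. Pprc1, a coactivator of the PGC-1 family, was at 10.25 and 10.23 in DMSO at 24 h, 9.75, 9.48 and 9.36 with WS1442, and 9.67, 9.77 and 9.67 with MeOH eluate, below DMSO in all treated samples. Its changes were -0.62 ± 0.10 with MeOH eluate at 6 h (adjusted p = 0.000728), -0.71 ± 0.10 with WS1442 at 24 h (adjusted p = 0.00019) and -0.54 ± 0.10 with MeOH eluate at 24 h (adjusted p = 0.00149). Its calls were lost when the probes of the gene were averaged.

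Tfam, which packages mitochondrial DNA and starts its transcription, was at 11.17 and 11.15 in DMSO at 24 h, 10.86, 10.80 and 10.87 with WS1442, and 10.84, 10.92 and 10.77 with MeOH eluate. The treated samples overlapped each other below DMSO, and it fell by 0.32 with each treatment (adjusted p = 0.000883 and 0.000912). Ppargc1a (PGC-1alpha) fell with MeOH eluate at 6 h (-0.44, adjusted p = 0.0212) and WS1442 at 24 h (-0.55, adjusted p = 0.0042). With the probes of Ppargc1a averaged these changes were -0.289 and -0.177, the second losing its call, and the first lost its call without either DMSO 6 h sample or without MeOH eluate 6 h replicate 3. Also at 6 h with MeOH eluate Gabpb1 (-0.37) fell and Ppargc1b (0.42) rose. Nrf1, Gabpa and Esrra, which bind or act at the promoters of these genes, were not called, with changes from -0.26 to 0.30.

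Assembly factors gave mixed counts. With WS1442 at 24 h 12.4% of all genes rose and 12.2% fell, and with MeOH eluate 9.36% and 8.46%. At 6 h these shares were 4.06% and 1.43% with WS1442, and 8.48% and 8.46% with MeOH eluate. Of 16 complex I factors, 5 fell and 2 rose with WS1442 at 24 h, among them Ecsit (-0.35), Ndufaf7 (-0.33) and Ndufaf4 (-0.25), and 1 rose and 2 fell with MeOH eluate. Ndufaf8 also fell with WS1442, at -0.365 to -0.314 over the alternatives that left no sample out. Of 22 complex IV factors, 5 rose and 4 fell with WS1442 at 24 h, with Sco2, a copper chaperone, at 0.46 and Surf1 at 0.25. Those that fell included Pet117 (-0.408 to -0.307) and Cox14 (-0.389 to -0.298), over the alternatives that left no sample out. With MeOH eluate at 24 h 6 rose and 0 fell, including Cox11 (0.27), Surf1 (0.19) and Cox20 (0.262 to 0.302 over the same alternatives). At 6 h 1 and 2 complex I factors and 1 and 3 complex IV factors rose with WS1442 and MeOH eluate, Cox11 (0.22 and 0.34) in both, and 1 complex I factor fell with MeOH eluate, Ndufaf4 (-0.45). Of 10 factors for complexes II and III, 0 were called with WS1442 at 6 h. With MeOH eluate Sdhaf1 rose at 6 h (0.26) and 24 h (0.35), and at 24 h 2 in all rose and 1 fell, while with WS1442 1 fell. Of 5 genes for complex V, Fmc1 rose at 6 h (0.27 and 0.37). At 24 h with WS1442 Tmem70 (-0.36) and the inhibitor Atpif1 (-0.24) fell and Atpaf1 (0.25) rose, and 0 were called with MeOH eluate.

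Of 17 genes of the tricarboxylic acid cycle, 1 rose with WS1442 at 6 h, 1 rose and 2 fell with MeOH eluate at 6 h, 3 rose and 2 fell with WS1442 at 24 h, and 2 rose and 2 fell with MeOH eluate at 24 h. Of all genes 5.49%, 16.9%, 24.6% and 17.8% were called in this order of comparisons. The counts in this paragraph differ from those shares by few genes. Idh3b (0.49 and 0.28) rose and Dlat (-0.43 and -0.29) fell with both treatments at 24 h, and citrate synthase Cs (-0.34) fell with WS1442. Of 13 genes for mitochondrial stress and quality control, 0 were called with WS1442 at 6 h and 2 rose with MeOH eluate at 6 h, Ddit3 (0.47) and Atf5 (0.22, lost when any of 11 of the 16 samples was left out). At 24 h with WS1442 1 rose, the protease Yme1l1 (0.75), and 4 fell, and with MeOH eluate Clpp (0.31) rose and 2 fell, Atf5 (-0.32) and Lonp1 (-0.23).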

How the data were processed

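One-colour (Cy3) Agilent arrays of total RNA from 16 samples were read by the authors with Agilent Feature Extraction. The deposited value table holds linear intensities that the authors quantile normalised over all samples, and each of its columns correlated best with its own array (r 0.9983 to 1). Of 59448 rows, 30660 were named through their RefSeq accession and 11134 by the name in the scanner files, and 17654 stayed unnamed. Log2 of the deposited intensities was fitted with limma 3.58.1 in R 4.3.3 (lmFit on 6 group means, eBayes with trend), on rows well above background in at least 1 whole group, keeping the brightest row per gene, with Benjamini-Hochberg adjustment over 30915 genes. A call is an adjusted p under 0.05. Members and gene lists were chosen with earlier results of these data known. Per-sample values are given for the largest called changes (up to 5 each way per comparison with DMSO). They are also given for isoform families, core subunits and genes whose probes disagree. Other listed genes are called ones, up to 4 per list and comparison and not always the largest, plus set regulators. Alternatives were scanner intensities with quantile, 75th percentile or normexp (offset 50) scaling, no background filter, all or averaged probes, no variance trend, array weights, fits within a time, the methods' t-test, replicate and slide row blocks, and leaving out each sample. The number of arrays limits the precision. The fit was tested on simulated data. The values of 1 member are not reported here.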

Additional observations from a re-analysis of the deposited data

Results flagged for a closer look

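Effects that differed between 6 h and 24 h by the interaction term of the limma fit (adjusted p under 0.05) are listed as the effect at 24 h minus the effect at 6 h on the log2 scale. For WS1442 this held for 18 members. The effect at 24 h was lower for Ndufc2 (-0.45), Uqcr11 (-0.43), Ndufs8 (-0.41), Sdhc (-0.38), Uqcrb (-0.38), Atp5h (-0.38), Ndufa5 (-0.3), Ndufa4 (-0.29), Ndufb10 (-0.28), Atp5g2 (-0.26), Atp5mpl (-0.26), Atp5j2 (-0.25), Ndufa2 (-0.24), Cox4i1 (-0.2) and the brightest probe of Ndufa13 (-0.21), a gene for which the mean of both probes gave 0.255 and no direction is given. The differences for Ndufa4 and Atp5mpl lost their calls when any of 12 and 13 of the 16 samples was left out. It was higher for Uqcrc1 (0.34), Cox6b2 (0.34) and Cox6b1 (0.23), the last turning to -0.015 under scaling to the 75th percentile, and that of Cox6b2 was lost when any of 12 samples was left out.

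For MeOH eluate it held for 11 members, each with a lower effect at 24 h. These were Ndufv3 (-0.58), Uqcr11 (-0.47), Ndufc2 (-0.38), Ndufb10 (-0.37), Atp5mpl (-0.35), Ndufa4 (-0.33), Ndufs8 (-0.32), Uqcrb (-0.32), Ndufb3 (-0.31), Atp5h (-0.3) and Atp5o (-0.23). The Ndufb3 difference was lost when any of 12 samples was left out. Ndufv3, Uqcr11 and Uqcrb were called upward at 6 h and downward at 24 h. Each effect is relative to DMSO samples on the same slide, and the part of the slides in these differences was not tested.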

How the results depend on the processing

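Counts of called members within 1.5 times the reported ones were found under the alternatives not named here. For WS1442 at 6 h (2 called) the count was 0 with no background filter, no variance trend, a fit within the time, the methods' t-test or the replicate block, and 1 with averaged probes. For MeOH eluate at 6 h (21) it was 8 under scaling to the 75th percentile, 9 with no variance trend, 10 with the replicate block and 0 by the methods' t-test. For MeOH eluate against WS1442 at 6 h (6) it was 2 with normexp, 2 with no variance trend, 2 within the time, 3 with no filter, 3 with the slide row as block and 0 by the t-test. For the difference of WS1442 effects (18) it was 33, all lower, under scaling to the 75th percentile, 8 with no variance trend and 6 with the replicate block. That scaling moved the median difference of all genes from 0.026 to -0.037. At 24 h the methods' t-test with Benjamini-Hochberg adjustment called 0 members against DMSO (25 with WS1442, 17 with MeOH eluate) and 0 between the treatments (18). Its unadjusted counts at p under 0.05 were 13, 27, 32 and 25 for the 4 comparisons with DMSO and 15 and 31 between the treatments, against 18, 33, 39 and 25 by limma for the former. The cause was not tested.

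Leaving out 1 sample gave 0 to 6 for WS1442 at 6 h, 2 to 22 for MeOH eluate at 6 h, 15 to 26 and 10 to 20 at 24 h, 1 to 7 and 11 to 21 between the treatments, and 7 to 19 and 6 to 13 for the differences between times. A DMSO group left with 1 sample is assumed to vary like the other groups.

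The labels do not say whether samples with the same replicate number belong together. Deviations of same-numbered samples correlated at -0.233 to 0.298, and 5 of 12 treated samples correlated best with their own number in the other treatment. With so few samples per group this cannot exclude pairing. The replicate block is therefore given as an alternative, and 43 of 118 calls were lost under it.

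Signs turned for 10 values. Under scaling to the 75th percentile these were Uqcrfs1 (-0.175), Ndufv1 (-0.025), Atp5g3 (-0.253) and COX2 (-0.056) with WS1442 at 24 h, Cox5a with MeOH eluate at 24 h (-0.024) and the difference of WS1442 effects on Cox6b1 (-0.015). With averaged probes they were Ndufa13 with WS1442 at 24 h (0.322) and its difference of effects (0.255), and Foxred1 with MeOH eluate at 24 h (0.098). Without DMSO 24 h replicate 1 the difference of MeOH eluate effects on Cox7b was -0.32, and without replicate 2 it was 0.615. Over the 118 called results of members, 2676 of 3364 alternative values kept their call and direction, 683 lost the call and 5 turned.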
